A study of Mus musculus with 8 samples.

Results

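The long noncoding RNAs (lncRNAs) described here, 8 genes of neurons and of the nucleus, were measured in the adult mouse retina and are Mir124-2hg, Meg3, Rian, Mirg, Malat1, Neat1, Miat and Snhg11. They were taken by gene symbol from a table of normalized counts, and all 8 of 8 had a row among its 18058 rows. Each had a mean of at least 10 normalized counts, so that all 8 entered the test of 17636 genes. Total RNA was sequenced from adult retinae of 4 wild-type (WT) samples and 4 quadruple knockout (KO) samples, each group lettered A to D. The WT mice came from the inbred strain 129S2/SvPasCrl. The quadruple KO mice were bred from single mutant lines and combined the knockout constructs of Bcan, Ncan, Tnc and Tnr, which encode the extracellular matrix proteins brevican, neurocan, tenascin-C and tenascin-R. Retinae were pooled before extraction, neither the sex nor the number of animals in a library is given in the sources used here, and nothing there says that a letter pairs a WT with a KO library. The p-values therefore measure only the spread between these samples, which may be partly technical.

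LncRNAs are transcripts that are not translated into a long protein, and several act inside the nucleus or as precursors of small RNAs. Meg3, Rian and Mirg are expressed from the maternal chromosome of the imprinted Dlk1-Dio3 region and carry microRNAs (miRNAs) and small nucleolar RNAs (snoRNAs) in their introns and exons. Mir124-2hg is a host transcript of miR-124, an abundant miRNA of neurons. Malat1 is found in nuclear speckles, where splicing factors gather, and Neat1 is the scaffold of paraspeckles. Miat, also known as Gomafu, stays in the nucleus of neurons, and Snhg11 is a neuron-enriched host of snoRNAs.

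The miRNAs carried by the host transcripts are shown first, because the annotation places their genes within some of these lncRNAs. In the GENCODE annotation of GRCm39, 21 miRNA genes lay within the 8 lncRNAs on the same strand. Mirg held 14 of them, Rian 4, Meg3 2 and Mir124-2hg 1, which is Mir124a-2. RefSeq sequences (GRCm38.p6) were matched by symbol for 19 of the 21 and gave 35 mature miRNAs with 34 different seeds. The seed, bases 2 to 8, pairs with target mRNAs and is printed in capitals. The only pair with a common seed was miR-453 and miR-496a-5p, both from Mirg.
mmu-miR-453: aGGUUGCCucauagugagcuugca
mmu-miR-496a-5p: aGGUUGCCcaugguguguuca
Also within Mirg, miR-485-3p and miR-154-3p had bases 3 to 8 in common and differed in the first base of the seed, and miR-369-3p and miR-410-3p are given beside them as further arms of the same cluster.
mmu-miR-485-3p: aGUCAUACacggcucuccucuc
mmu-miR-154-3p: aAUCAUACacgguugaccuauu
mmu-miR-369-3p: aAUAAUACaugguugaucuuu
mmu-miR-410-3p: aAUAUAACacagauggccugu
One further miRNA is given for each of the 3 hosts of the imprinted region, miR-134-5p for Mirg, which is known for its role in dendrites, miR-370-3p for Rian and miR-770-5p for Meg3.
mmu-miR-134-5p: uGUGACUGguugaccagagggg
mmu-miR-370-3p: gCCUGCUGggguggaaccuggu
mmu-miR-770-5p: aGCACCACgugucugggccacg
The libraries measured the host transcripts, and 0 of the 21 miRNA genes had a row of its own in the table.

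Libraries differed in depth and, among WT, in composition. The estimated depth was 23.8 to 40.4 M reads in WT and 38.9 to 52.4 M in the KO. WT B and WT C stood apart from the other 6 libraries. Mitochondrially encoded mRNAs made up 0.402% and 0.341% of their normalized counts, against 1.28% to 1.64% in WT A and WT D and 1.33% to 1.47% in the KO. The signal recognition particle RNA took 19.3% and 14.8% in WT B and WT C, against 6.82% to 8.69% elsewhere. Differences between genotypes of the 8 lncRNAs, and those stated for other genes, are therefore given with all 4 WT libraries and with WT A and WT D alone. These pairs were set apart by measured values and not by the labels, so that differences between them are given as a description with no test. Of the targeted genes, Ncan was at 569 to 789 normalized counts in WT and at most 0.853 in the KO, Bcan at 197 to 327 and 11.5 to 22.1, and Tnr at 5578 to 6317 and 2374 to 2580. Tnc did not separate the genotypes, with 881 to 1592 in WT and 1024 to 1249 in the KO. These are counts of whole genes. The authors report that a stretch of the sequence of each targeted gene is lost in the KO. By western blot they did not detect the 4 proteins in the postnatal KO retina. The labelled tissue was borne out by its markers, and the summed level of 8 rod genes was 1338115 to 1934069 normalized counts per library.

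Levels differed widely between the 8 lncRNAs. Values are normalized counts, and the order of the 8 lncRNAs is given after division by the exon length in kb. This length covers the exons of all annotated transcripts of a gene, 22397 bases for Neat1, so that the order depends on the annotation. Malat1 ranked first, with 25438 normalized counts per kb as the mean of the 8 libraries. By mean count, not divided by length, its row ranked 11th in the table and first of the lncRNAs. Mir124-2hg followed with 2426 per kb, Snhg11 with 962 and Meg3 with 420. Each of these 4 was above the next in every library. Rian stood at 112 and Miat at 66.1 per kb. Their ranges overlapped only between different libraries, since Miat reached 111 in WT C and Rian fell to 99.98 in KO C. Mirg and Neat1 closed the order at 23.3 and 18.7 per kb and also overlapped. Neat1 was thus the lowest of the 8 per kb of all annotated exons, although its neighbour on chromosome 19, Malat1, was the highest. By mean count, not divided by length, Neat1 with 420 was above Mirg with 225.

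**Figure D1:**
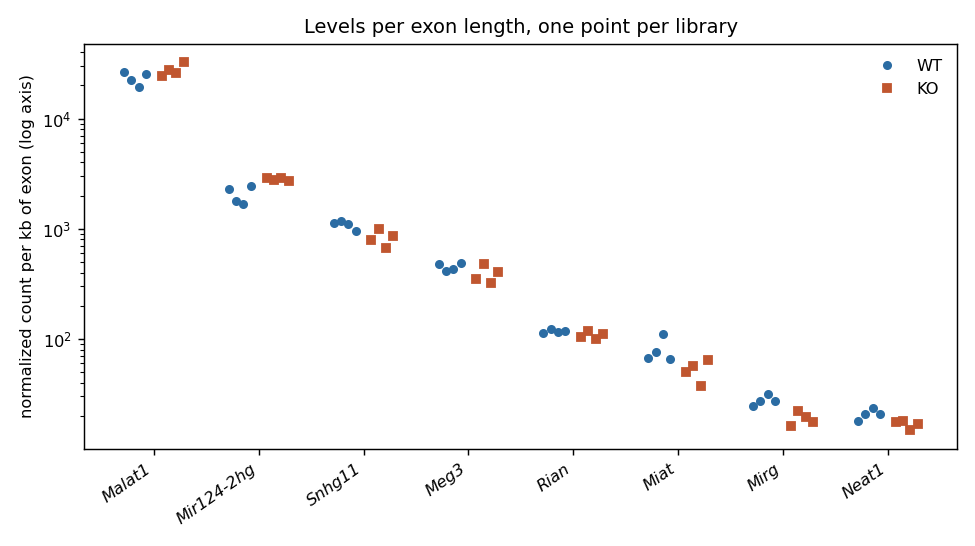
Level of each lncRNA per kb of exon on a log axis, with a circle for each of 4 WT libraries and a square for each of 4 KO libraries. The order runs from Malat1 with a mean of 25438 per kb to Neat1 with 18.7. The ranges over all libraries overlap for Rian and Miat, and for Mirg and Neat1.

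None of the 8 lncRNAs passed the limma test between genotypes that was used here. The authors, with DESeq2 on the same libraries, report an upregulation of Mir124-2hg in the KO. With limma on log2(normalized count + 1) and Benjamini-Hochberg adjustment over all genes tested, 0 of 8 had an adjusted p under 0.05, against 0.437% of all genes (77 of 17636). At an unadjusted p under 0.05, 4 of the 8 had lower values in the KO (Mirg, Snhg11, Miat and Neat1), where 7.28% of all genes did. One, Mir124-2hg, had higher values, where 9.29% of all genes did. The smallest adjusted p was 0.246, for Mirg. The median log2 difference of the 8 was -0.28, against 0.00 over all genes tested and 0.05 over the 1383 lncRNA genes tested, of which 3 were called lower and 2 higher. The libraries of the genotypes did not overlap for 4 of the 8. All KO libraries were below all WT libraries for Mirg, Neat1 and Miat, as for 3.58% of all genes, and above them for Mir124-2hg, as for 6.16%. Fold changes here are on the log2(value + 1) scale.

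**Figure D2:**
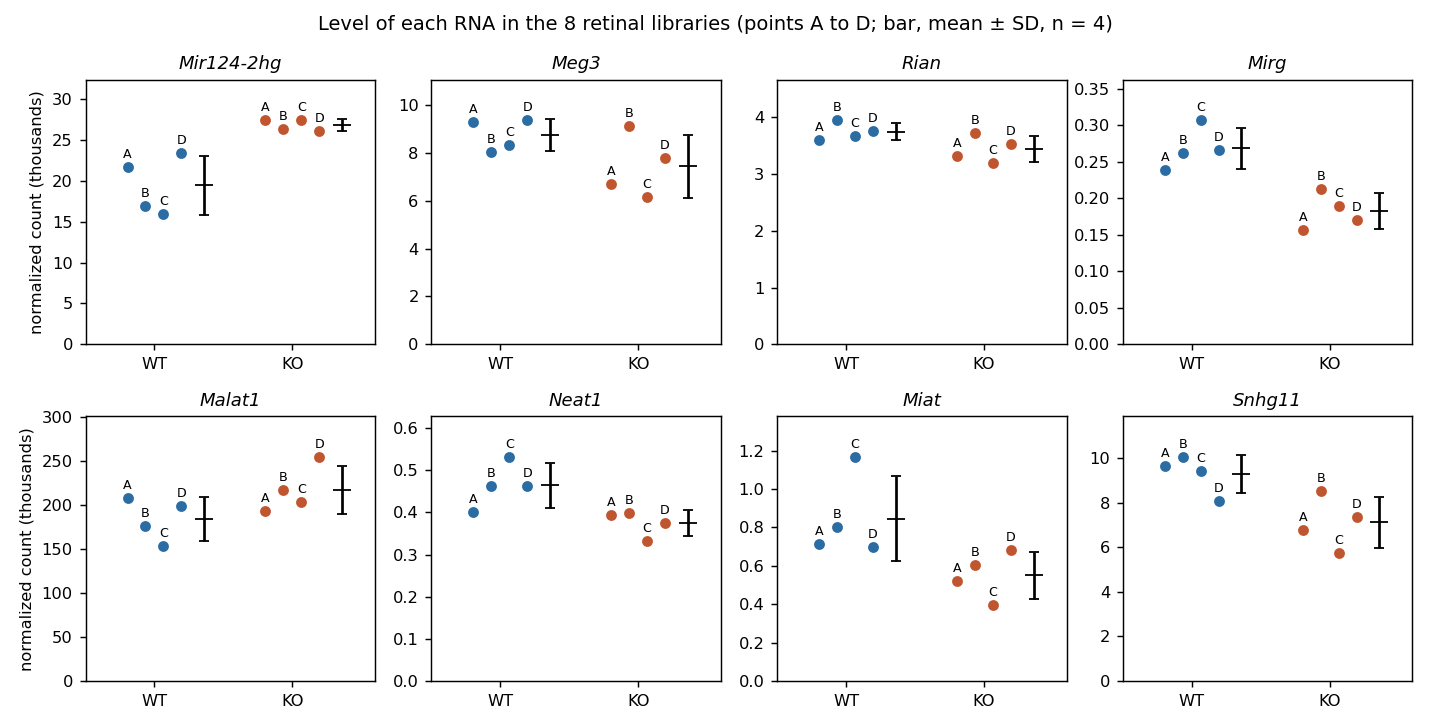
Normalized counts (axis from 0, scaled as labelled) of the 8 lncRNAs in the libraries A to D of each genotype, with the mean ± SD (n = 4) beside the points. All KO points lie below all WT points for Mirg, Neat1 and Miat and above them for Mir124-2hg.

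Mir124-2hg, the miR-124 host on chromosome 3 (17840052 to 17906250, plus strand, GRCm39), was the one lncRNA whose KO libraries were all above WT. The WT libraries A to D held 21653, 16895, 15948 and 23404 normalized counts, and the KO libraries 27461, 26325, 27424 and 26086. Every KO library was above every WT library, and the 2 lowest values were those of WT B and WT C. The means were 19475 ± 3618 in WT and 26824 ± 721 in the KO (SD, n = 4), a log2 difference of 0.48 ± 0.12 (SE, limma adjusted p = 0.296). A two-sided exact permutation test gave p = 0.0286, the smallest that 4 against 4 libraries allow. The KO libraries agreed closely, with a coefficient of variation of 2.69%, against 18.6% in WT. With WT A and WT D alone the difference was 0.25 ± 0.05 (limma adjusted p = 0.110), and the mean of these 2 libraries was 22528. Its miRNA gene Mir124a-2 lies in an exon, at 17849826 to 17849934.

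The second miR-124 host with a row in the table, Mir124a-1hg, did not separate the genotypes. It held 13482, 12660, 12081 and 17236 normalized counts in WT and 14828, 16283, 16978 and 19114 in the KO, a log2 difference of 0.29 ± 0.12 (limma adjusted p = 0.301), or 0.13 with WT A and WT D alone. WT B and WT C were again its lowest libraries. Of 20 listed targets of miR-124, 19 were tested and 0 were called. At an unadjusted p under 0.05, 5 had higher values in the KO (9.29% of all genes did) and 1 lower (7.28%), with a median log2 difference of 0.10, or 0.05 with WT A and WT D alone. Jag1, a Notch ligand, and Ctdsp2, a phosphatase, had the highest mean counts, with log2 differences of 0.08 ± 0.10 and -0.20 ± 0.13. These were 0.01 and 0.02 with WT A and WT D alone, so that the direction of Ctdsp2 turned. Ptbp1, the splicing repressor that miR-124 is known to keep low in neurons, had 0.28 ± 0.13 (limma adjusted p = 0.304), or 0.07 with WT A and WT D alone (limma adjusted p = 0.787). It was named after its value was seen, as were the targets without overlap between the genotypes, Vamp3, Ptpn12, Ezh2 and Rcor1. All 4 had higher values in the KO, as 6.16% of all genes had. In that order, their log2 differences were 0.16, 0.37, 0.23 and 0.23, or 0.11, 0.24, 0.10 and 0.18 with WT A and WT D alone.

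Mirg, the miRNA host at the far end of the imprinted cluster (chromosome 12, 109696198 to 109715898, plus strand), had lower values in every KO library. WT A to D held 239, 262, 307 and 266 normalized counts, and KO A to D 156, 213, 190 and 170. The highest KO library, KO B, was below the lowest WT library, WT A. The means were 269 ± 28.6 and 182 ± 24.9 (SD, n = 4), a KO level of 67.9% of WT. The log2 difference was -0.56 ± 0.13 (limma adjusted p = 0.246, exact permutation p = 0.0286), and -0.47 ± 0.14 with WT A and WT D alone (limma adjusted p = 0.278). Of its 14 miRNA genes, among them those of the seed pair printed above, 6 lie wholly within exons, 4 partly and 4 in introns.

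Meg3, the first transcript of the cluster (chromosome 12, 109506877 to 109538165, plus strand), spread more within the KO than within WT. It held 9282, 8037, 8342 and 9377 normalized counts in WT A to D, and 6704, 9143, 6141 and 7799 in KO A to D. KO B lay among the WT libraries, while the other KO libraries were below all of WT. The log2 difference was -0.25 ± 0.12 (limma adjusted p = 0.312, exact permutation p = 0.114). With WT A and WT D alone it was -0.34 ± 0.13 (limma adjusted p = 0.384), and all 4 KO libraries were then below both WT libraries.

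Rian, which carries snoRNAs between Meg3 and Mirg (chromosome 12, 109570242 to 109628150, plus strand), varied least of the 8 within WT. WT A to D held 3604, 3953, 3664 and 3764 normalized counts, and KO A to D 3313, 3730, 3197 and 3536. The groups overlapped in KO B. The log2 difference was -0.12 ± 0.07 (limma adjusted p = 0.341, exact permutation p = 0.0857), or -0.10 ± 0.07 with WT A and WT D alone (limma adjusted p = 0.586). After a correction for GC content, added after the data were seen, it was -0.34, and -0.02 with that correction and WT A and WT D alone. The coefficient of variation was 4.08% in WT and 6.88% in the KO. GENCODE places 13 snoRNA genes within Rian, 12 of them in exons of annotated transcripts.

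The balance between the 3 transcripts of the cluster was compared by their ratios, of which none passed after adjustment. The ratio of Rian to Mirg was 15.1, 15.1, 11.9 and 14.1 in WT A to D, and 21.2, 17.5, 16.8 and 20.8 in KO A to D. Every KO library had the higher ratio, with means of 14.1 ± 1.5 and 19.1 ± 2.24 (SD, n = 4). The exact permutation p was 0.0286, and 0.114 after Benjamini-Hochberg adjustment over the 4 ratios computed. The ratio of Meg3 to Mirg was 33.0 ± 5.15 in WT and 41.0 ± 5.95 in the KO (exact permutation p = 0.0857, adjusted 0.114). That of Meg3 to Rian was 2.34 ± 0.242 and 2.15 ± 0.233 (exact permutation p = 0.257, also after adjustment). Between the start of Dlk1 and the end of Dio3 the table held 6 rows, of which 0 were called. Beside the 3 lncRNAs these were Gm37899 with a log2 difference of -0.08 ± 0.30, B830012L14Rik with -0.21 ± 0.18, and Dio3os with -0.11 ± 0.33 at a mean of only 11.6 normalized counts. They had -0.63, -0.49 and -0.15 with WT A and WT D alone, so that Gm37899 and B830012L14Rik were then both below Mirg, at -0.47. WT B and WT C were the lowest WT libraries for Gm37899, at 62.9 and 75.4 against 145 and 155, and for B830012L14Rik, at 103 and 114 against 149 and 172. The list for the region had 9 genes, of which 5 had a row.

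**Figure D3:**
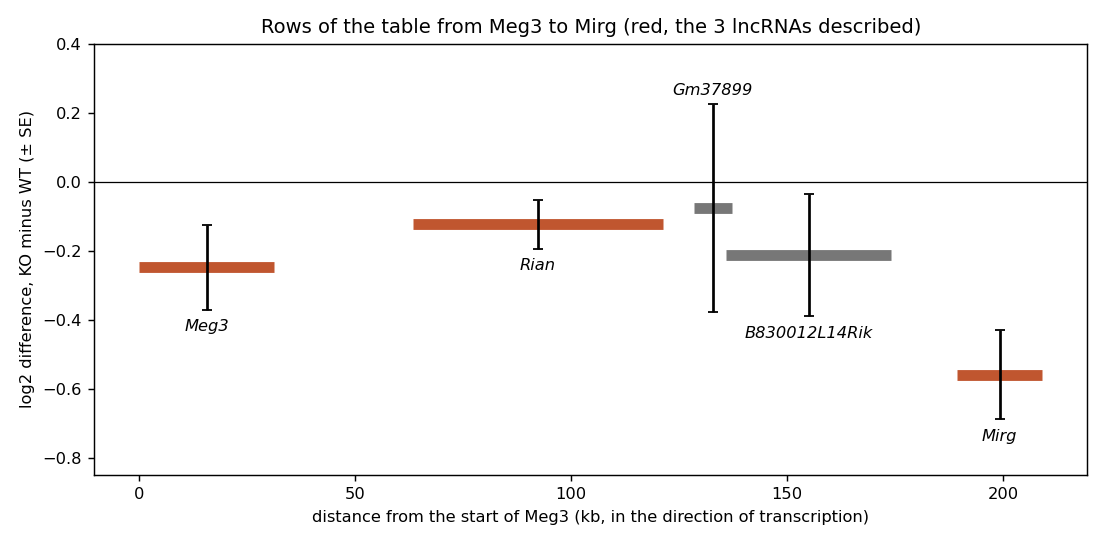
Log2 difference of KO minus WT (± SE of the limma fit) of 5 rows of the imprinted region, drawn as bars over their extent in kb from the start of Meg3. Meg3, Rian and Mirg are in red, and Mirg lies lowest at -0.56 with all 4 WT libraries, while the error bar of Gm37899 spans 0. With WT A and WT D alone, not drawn, Gm37899 has -0.63, B830012L14Rik -0.49 and Mirg -0.47.

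Malat1, the speckle-associated RNA (chromosome 19, 5845717 to 5853602, minus strand), did not separate the genotypes. WT A to D held 208223, 176447, 152954 and 198960 normalized counts, and KO A to D 193173, 216804, 203301 and 254952. The low end was set by WT C and WT B, and KO D was the highest library. The log2 difference was 0.24 ± 0.13 (limma adjusted p = 0.321, exact permutation p = 0.143), and 0.08 ± 0.11 with WT A and WT D alone (limma adjusted p = 0.777). Of 20 listed proteins of speckles and splicing, 20 were tested and 0 called, with a median log2 difference of 0.02. At an unadjusted p under 0.05, 3 were higher (9.29% of all genes were) and 1 lower (7.28%). The highest mean counts of this list were those of Son and Srrm2. Son, a core protein of speckles, had 0.01 ± 0.06 (-0.04 with WT A and WT D alone, the opposite direction). Srrm2, its partner in speckles, had -0.29 ± 0.12. Srrm2 was higher in WT B and WT C, 25080 and 24444, than in WT A and WT D, 20230 and 17152, and its difference with WT A and WT D alone was -0.09.

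Neat1, the paraspeckle scaffold beside Malat1 (chromosome 19, 5874736 to 5897132, minus strand), had lower values in every KO library. WT A to D held 402, 462, 532 and 463 normalized counts, and KO A to D 394, 399, 332 and 374. WT A, the lowest WT library, exceeded KO B, the highest KO library, by less than 3 normalized counts. The means were 465 ± 53.4 and 375 ± 30.6 (SD, n = 4), with a log2 difference of -0.31 ± 0.11 (limma adjusted p = 0.301, exact permutation p = 0.0286). With WT A and WT D alone the difference was -0.21 ± 0.10 (limma adjusted p = 0.478). The ratio of Malat1 to Neat1 was 404 ± 96.4 in WT and 582 ± 83.2 in the KO, and WT A overlapped with KO A (exact permutation p = 0.0571, adjusted 0.114). Of 14 paraspeckle proteins, all 14 were tested and 0 called. Nono, which binds Neat1 in paraspeckles, and Dazap1 had higher values in the KO at an unadjusted p under 0.05, as had 9.29% of all genes. Nono had a log2 difference of 0.37 ± 0.12 and Dazap1 0.34 ± 0.14, or 0.14 and 0.10 with WT A and WT D alone. The highest mean counts of the list were those of Hnrnpk and Hnrnpa1, at -0.06 ± 0.07 and -0.36 ± 0.21. These were -0.0036 and 0.07 with WT A and WT D alone, so that the direction of Hnrnpa1 turned, with 12973 and 13849 normalized counts in WT B and WT C against 7817 and 6939 in WT A and WT D.

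Miat is shown with its sequence, because its exons carry the repeat TACTAAC, which as RNA is known to bind the splicing factor SF1. The gene lies on chromosome 5 (112361094 to 112377261, minus strand). Its exons held 6 such repeats on the sense strand and 0 on the other, 0.569 per kb of exon against 0.0266 per kb over all genes. Only 3 of 17554 tested genes with exon sequence (0.0171%) had 6 or more, Miat included, and 1 of 1383 lncRNAs, Miat itself, while 14.4% of the genes had at least 1. Exons differ in length between genes, so these shares describe whole genes. Of the other 7 lncRNAs, Mirg had 2 on the sense strand, Rian and Neat1 1 each, and the rest 0. The closest 3 repeats lie within 61 bases at chr5:112364618-112364678 of GRCm39, printed on the minus strand with the repeats in capitals.
Miat repeats: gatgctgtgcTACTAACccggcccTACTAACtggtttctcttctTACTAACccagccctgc

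Miat had the most variable values of the 8. WT A to D held 712, 803, 1168 and 696 normalized counts, and KO A to D 523, 601, 395 and 681. WT C stood above the other 7 libraries, and KO D came close to WT D without reaching it. The means were 845 ± 220 and 550 ± 122 (SD, n = 4), a log2 difference of -0.61 ± 0.20 (limma adjusted p = 0.301, exact permutation p = 0.0286). With WT A and WT D alone the difference was -0.38 ± 0.18 (limma adjusted p = 0.454). Sf1, which encodes the protein known to bind the repeats and was named after its values were seen, held 5523, 4255, 3994 and 5695 in WT and 5916 to 6528 in the KO, a log2 difference of 0.35 ± 0.12 (limma adjusted p = 0.301), or 0.13 with WT A and WT D alone (limma adjusted p = 0.372).

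Snhg11, the snoRNA host on chromosome 2 (158217558 to 158228071, plus strand), showed lower values in 3 of the 4 KO libraries than in any WT library. WT A to D held 9629, 10055, 9398 and 8092 normalized counts, and KO A to D 6779, 8533, 5748 and 7374. KO B lay above WT D, so that the groups overlapped. The means were 9294 ± 846 and 7109 ± 1163 (SD, n = 4), a log2 difference of -0.40 ± 0.12 (limma adjusted p = 0.301, exact permutation p = 0.0571), and -0.33 ± 0.14 with WT A and WT D alone (limma adjusted p = 0.410). Of 19 other snoRNA hosts listed, 18 had a row and were tested and 0 were called. Their median log2 difference was -0.13. At an unadjusted p under 0.05, 2 were lower (Snhg15 and Snhg20), as were 7.28% of all genes, and 1 higher (Snhg6), as were 9.29%. Snhg15, Snhg20 and Snhg6 had log2 differences of -0.62, -0.59 and 0.45, or -0.11, -0.22 and 0.09 with WT A and WT D alone. Snhg14 and Gas5, with the highest mean counts of the list, had log2 differences of -0.10 ± 0.13 and -0.16 ± 0.09, or -0.32 and -0.05 with WT A and WT D alone.

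When only WT A and WT D stood for WT, the direction of all 8 lncRNAs stayed as with all 4, and 0 of 8 were called, against 0.527% of all genes. At an unadjusted p under 0.05, 3 were then lower (Mirg, Meg3 and Snhg11), as were 5.79% of all genes, and Mir124-2hg higher, as were 5.83%. KO libraries were all below WT A and WT D for 4 of the 8 (Meg3, Mirg, Neat1 and Miat), as for 9.7% of all genes, and all above for Mir124-2hg, as for 12.5%. Against WT B and WT C alone, 6 of 8 were called, all but Meg3 and Rian, but so were 51.8% of all genes.

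**Figure D4:**
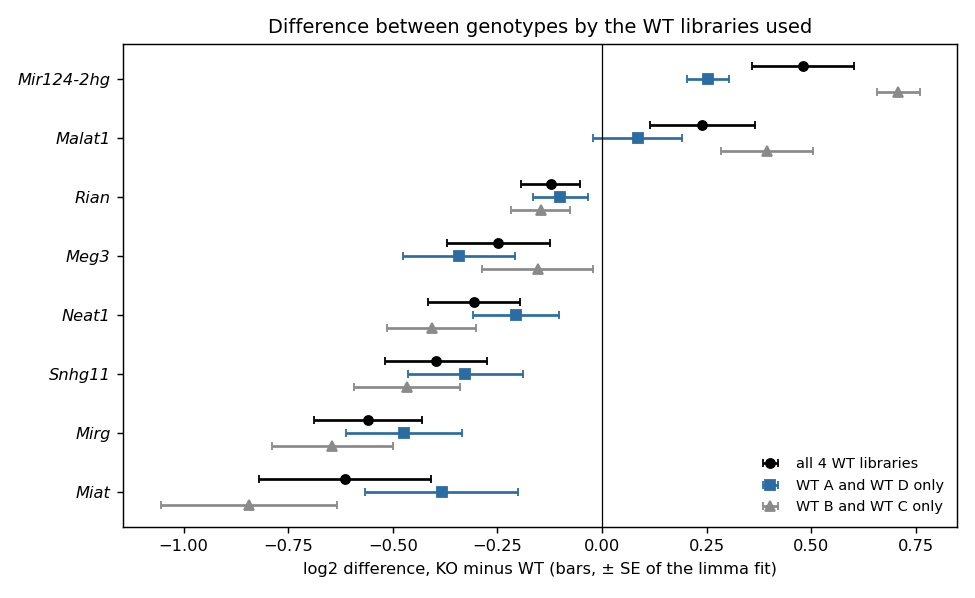
Log2 difference of KO minus WT with the SE of the limma fit for the 8 lncRNAs, against all 4 WT libraries (circles), WT A and WT D (squares) and WT B and WT C (triangles). Mir124-2hg has 0.48 with all WT libraries, 0.25 with WT A and WT D and 0.71 with WT B and WT C, and all 3 estimates of each lncRNA have one sign.

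Of the 8 lncRNAs, 4 differed between WT B and WT C on one side and WT A and WT D on the other without overlap. Mir124-2hg, Malat1 and Meg3 were lower in both (3 of 8), as were 35.8% of all genes, and Miat alone was higher in both, as were 35.1%. The other 4 overlapped. Among the 1383 lncRNA genes tested, 37.7% were lower in both and 22.6% higher. The level of Mir124-2hg in WT B and WT C was 72.9% of that in WT A and WT D, that of Malat1 80.9%, that of Meg3 87.8% and that of Miat 140%. The log2 differences of the 8 ran from -0.46 for Mir124-2hg to 0.46 for Miat. Some other lncRNAs differed more, among them Norad, at 56104 and 35043 in WT B and WT C against 18061 and 15550 in WT A and WT D, and Oip5os1, at 10791 and 11654 against 17373 and 17276. These had the highest mean counts of 29 other lncRNAs listed, of which 21 were tested and 0 called between genotypes. Norad had a log2 difference between genotypes of -0.74 ± 0.35 and Oip5os1 one of 0.30 ± 0.16. With WT A and WT D alone these were -0.04 and -0.01, so that the direction of Oip5os1 turned. At an unadjusted p under 0.05, 3 of the list were lower in the KO (7.28% of all genes were) and 2 higher (9.29%).

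The split among WT moved with base composition. Across 17554 genes, the log2 difference of WT B and WT C against WT A and WT D was higher for genes with more GC in their exons (Spearman's rho = 0.409 across genes, which are not independent replicates and share the same 4 libraries). Miat had the highest GC content of the 8, 55.6%, and Rian the lowest, 38.5%. Genes within 2 percentage points of Miat had a median difference of 0.20, below its own 0.46, and those near Mir124-2hg (45.3%) had -0.12, against its own -0.46. Rian lay above its neighbours, at 0.05 against -0.44. The part of base composition in the values of the 8 was not tested.

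**Figure D5:**
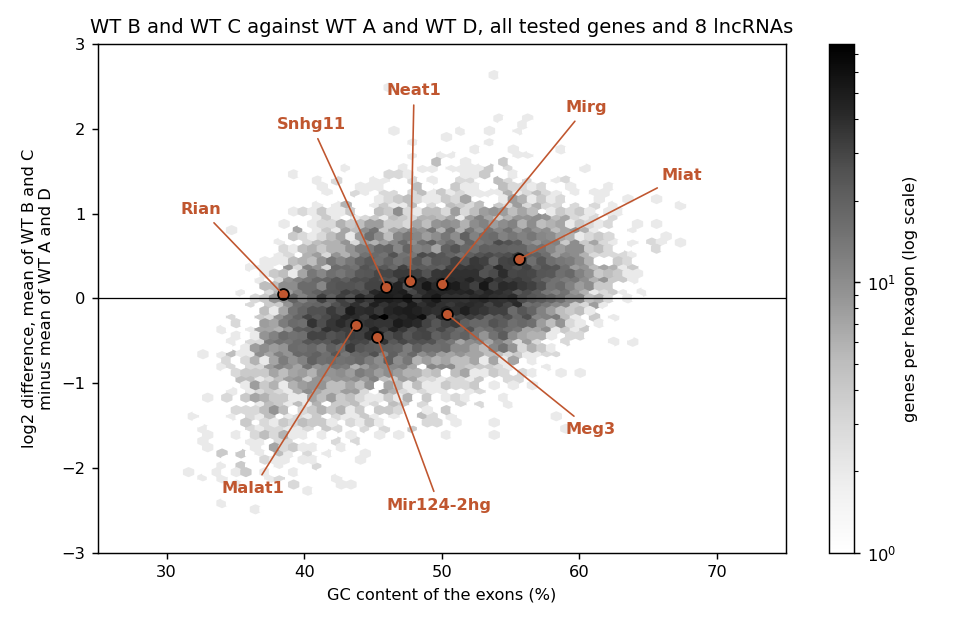
Log2 difference of the mean of WT B and WT C minus that of WT A and WT D (vertical) against the GC content of the exons in percent (horizontal), with the number of genes per hexagon in grey on a log scale and the 8 lncRNAs in red. The lncRNAs lie between -0.46 and 0.46, inside the cloud of the 17554 genes, of which 86 fall outside the axes.

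Within the KO, KO C was the lowest KO library for Meg3, Rian, Neat1, Miat and Snhg11, and KO B the highest for Meg3, Rian, Mirg, Neat1 and Snhg11. Their values across the 8 libraries moved together to different degrees. The Pearson correlation of log2 values was 0.90 between Neat1 and Miat, 0.88 between Rian and Snhg11 and -0.86 between Mir124-2hg and Miat. Meg3 and Malat1 had 0.00. These are descriptions over 8 libraries that share the genotype contrast and the split among WT. Among the 12630 genes that averaged 100 or more normalized counts, those most like Mir124-2hg were Prelp, Slc46a3 and Gm44950, all at 0.99. Those most like Meg3 were 9630010A21Rik, Izumo4 and Plod3 (0.91 to 0.96), and like Mirg Pwwp3b, Twf2 and Anxa2 (0.95 to 0.97). Dtx1, Traip and Chrm3 were most like Rian (0.89 to 0.90), and B630019K06Rik, Gm45779 and Asb3 most like Snhg11 (0.94 to 0.95). For Malat1 they were Csnk2a1-ps3, Zfp850 and Rpgrip1 (0.95 to 0.96), for Neat1 Pcdha5, Aopep and Rabepk (0.95), and for Miat Fam241b, Tyw3 and Abi3 (0.95 to 0.98).

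Sums of the markers of some cell types are given beside these values. In bulk tissue, fewer cells of a type and less RNA per cell cannot be told apart. The summed level of 8 ganglion cell markers was 28652 to 31847 normalized counts in WT and 23960 to 28642 in the KO. At an unadjusted p under 0.05, 4 of these 8 were lower (7.28% of all genes were), and 0 were called. The ganglion cell sums of KO A to D were 23960, 27649, 28642 and 27958, all below the lowest WT sum. The median log2 difference of these markers was -0.19, or -0.21 with WT A and WT D alone. Rod markers summed to 1668441, 1338115, 1551629 and 1772960 in WT A to D and to 1783108 to 1934069 in the KO. Their median log2 difference was 0.21, or 0.13 with WT A and WT D alone. At an unadjusted p under 0.05, 3 of 8 rod markers were higher (9.29% of all genes were), and 0 were called. Amacrine cell markers summed to 33769 to 38087 in WT and 34640 to 36021 in the KO. At an unadjusted p under 0.05, 2 of 8 amacrine cell markers were higher (9.29% of all genes were), and 0 were called. Their median log2 difference was 0.17, or 0.01 with WT A and WT D alone. Mueller glia markers summed to 150957, 195125, 189747 and 134608 in WT A to D and to 133933 to 148664 in the KO. Those of the retinal pigment epithelium were highest in WT D, at 6453, against 2114 to 3722 elsewhere. Lens genes summed to 86.3 to 2983 in WT and 35.7 to 1973 in the KO, with WT B and KO C highest. Without these 2 libraries the log2 differences kept their directions, 0 of 8 were called, and 2 of 8 had an unadjusted p under 0.05 (Mirg at -0.59 and Mir124-2hg at 0.41). Of all genes, 2.25% were lower and 1.74% higher at that p. The part of cell composition in the values of the lncRNAs was not tested. Vwf, an endothelial gene, was the only called gene of all the lists, with means of 265 in WT and 54.1 in the KO (log2 difference -2.29, limma adjusted p = 0.000539, and -2.35 with WT A and WT D alone).

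Some limits attach to the counting. GENCODE places 10 genes antisense to 6 of the 8 lncRNAs, and 0 of the 10 had a row in the table. Beside the miRNA and snoRNA genes, 11 further genes overlap 5 of the 8 on the same strand, and 0 of these had a row. Strand would not tell reads from these 11 genes apart from those of the lncRNA. Whether strand was used in counting is not given in the sources used here, so that reads from antisense partners such as Rtl1 in Rian and Frmd8os in Neat1 cannot be told apart from those of the lncRNA.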

How the data were processed

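Adult retinal total RNA of 4 WT and 4 quadruple KO samples was sequenced from 450 ng per library with a directional total RNA kit. Reads were trimmed by the authors (Trim Galore 0.6.7), mapped to GRCm39 with STAR 2.7.9a and quantified with Salmon 1.5.2, and the authors deposited normalized counts from DESeq2 1.32.0 (R 4.1.1), the unit used here. Their other columns, fold changes and p-values of their own comparison, were not used. Depth was estimated from the spacing of low values. Whole steps held at most 68.7% of these, which is too few to recover read numbers, so no count model was fitted.

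Values were transformed as log2(value + 1), a pseudocount of 1. Genes with a mean of at least 10 were tested with limma 3.58.1 (R 4.3.3, trended eBayes, no covariate). The threshold was a Benjamini-Hochberg adjusted p of 0.05. A count model had been planned only for recoverable counts. Single values were tested by a two-sided exact permutation test (scipy 1.17.1). Positions, exons and GC content came from GENCODE vM39, which matched 17969 of 18058 rows, and miRNA sequences from RefSeq. The limma fit was tested on simulated counts, with a spread taken from the KO libraries and without the split among WT. Same-letter libraries did not deviate together, so letters were not a block.

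The 8 lncRNAs and all lists were chosen with earlier results of these data known. Genes named were the 8, any called list gene, the 2 with the highest mean count in each RNA list, the 3 most like each lncRNA and the targeted genes. Others are said to have been named after their values were seen, or are named by their unadjusted p. Alternatives were other normalizations, filters, pseudocounts, priors, array weights, a block, WT pairs and left-out libraries. The GC correction and the fit without WT B and KO C were added after the data were seen. One listed gene is not reported here and enters no count of its list.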

Additional observations from a re-analysis of the deposited data

How the results depend on the processing

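No difference between genotypes of the 8 lncRNAs changed its direction in any alternative run, and no lncRNA was called in any of them except with WT B and WT C as the only WT libraries. That fit called 9133 genes and 6 of the 8 lncRNAs, with log2 differences of 0.71 for Mir124-2hg, -0.65 for Mirg, 0.39 for Malat1, -0.41 for Neat1, -0.84 for Miat and -0.47 for Snhg11. Array weights called 143 genes and the letter as a replicate block 51, against 77 in the report, and neither called any of the 8. Values moved by over 1.5 times without a change of direction as follows. With array weights, Mir124-2hg had 0.31 (limma adjusted p = 0.0594), Neat1 -0.17 and Malat1 0.09. Malat1 had 0.15 without WT C and 0.16 without KO D, and Meg3 -0.16 without KO C and -0.15 against WT B and WT C. After GC correction Rian had -0.34, and with WT A and WT D alone as well -0.02, beside Neat1 at -0.19, Malat1 at 0.12, Miat at -0.38 and Mir124-2hg at 0.27. Without WT B and KO C, Snhg11 had -0.26 and Rian -0.06. With each library left out in turn, 56 to 89 genes and 0 of the 8 were called. Leaving out WT B and KO C called 51 genes. The cause of these shifts was not tested.

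Against WT A and WT D, the WT B and WT C difference of Mir124-2hg was -0.58 with quantile normalization, -0.35 after GC correction and -0.51 to -0.40 with a WT library left out. That of Rian, 0.05, turned to -0.041 with quantile normalization and to -0.0075 without WT B, and was 0.64 after GC correction. That of Malat1 was -0.13 after GC correction. The same-letter correlations between genotypes, -0.11 to 0.10, gave no pairing, and only C correlated best with its own letter. The DESeq2 and edgeR fits were not run because whole reads were not recovered.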
